A study of Homo sapiens with 23 samples.

Results

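Interferon-stimulated genes are genes whose transcription rises when a cell senses interferon, and 36 of them were chosen by name from a fixed list. All 36 had a row among the 21463 gene rows of the deposited table. PC-3, an established human line, was grown out of a prostate cancer that had spread to bone. The cells of all groups carried a lentiviral TetOne construct with PARG cDNA and a cleavable mClover3 behind a doxycycline-inducible promoter. PARG cleaves poly(ADP-ribose) from proteins. Clones I4 and H6, each a single clone, were kept for 72 h without doxycycline or with 500 ng/ml doxycycline. Every clone was examined in experiment N (passage 5, libraries holding both strands) and in experiment B (passage 7, strand-specific libraries from another sequencing centre). That made 8 groups with 3 wells each, except 2 wells for untreated H6 in experiment B. No group lacked the construct among those analysed here, so the drug's own effects and those of PARG cannot be told apart, and neither can fewer expressing cells and less RNA per cell.

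Interferons bind receptors that activate the kinases JAK1 and TYK2, and these phosphorylate STAT proteins. Together with IRF9 such proteins form a complex that binds the interferon-stimulated response element, ISRE, in the promoters of antiviral genes. Other inputs, such as IRF3 activated downstream of RNA and DNA sensors, can reach some of the same promoters without interferon. The products block viral entry (IFITM proteins), bind viral RNA (IFIT proteins), trigger RNA decay (OAS proteins) or modify other proteins (ISG15).

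Promoter letters are shown for the members that were called changed in at least 2 of the comparisons described below, or differed most between the clones, and that hold an ISRE core. The core was written GAAANNGAAA, with N for any base, and searched on both strands in the 250 bases before each RefSeq start (GRCh38.p14); overlapping matches were each counted. Of the 36 members, 29 matched the RefSeq table (DDX58 under its current symbol RIGI), and 19 of these 29 held at least 1 core. Across that whole table, 3.71% of 27305 genes held one. Each line gives 30 bases, 5′ to 3′ along the gene's own strand, with the cores in capitals.
IFIT1: tagTTTCACTTTCcccTTTCGGTTTCccta
IFIT3: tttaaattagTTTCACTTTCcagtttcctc
ISG20: taacaaactaGAAACTGAAAcagggtcggg
DDX60: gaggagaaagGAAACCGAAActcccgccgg
IFI44: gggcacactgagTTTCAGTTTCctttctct
ISG15: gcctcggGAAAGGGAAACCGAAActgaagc
IFITM3: gGAAAAGGAAActgttgaGAAACCGAAAct
OAS3: gttcggagagccgggcggGAAAACGAAAcc
IFI44L: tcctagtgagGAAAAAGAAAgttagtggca

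These windows lie at chr10:89392504-89392533 (IFIT1, plus strand), chr10:89327865-89327894 (IFIT3, plus), chr15:88638937-88638966 (ISG20, plus), chr4:168318786-168318815 (DDX60, minus) and chr1:78649759-78649788 (IFI44, plus). Those of ISG15, IFITM3, OAS3 and IFI44L lie at chr1:1013377-1013406 (plus), chr11:320884-320913 (minus), chr12:112938444-112938473 (plus) and chr1:78620365-78620394 (plus). IFIT1, ISG15 and IFITM3 carry a pair of cores within the 30 bases. The 10 matched members without this core in the window were SAMD9L, IRF9, UBE2L6, STAT2, IRF1, OAS1, HERC6, IFI35, XAF1 and DDX58. IFIT2 and OASL were among the 7 members not matched. The other motif searched, the gamma-activated sequence TTCNNNGAA, which reads the same on both strands and can overlap the ISRE core, was found in 9 of the 29 members and in 8.09% of all genes. A match describes letters and is not a measured binding site: members with a core rose, fell or were not called, as the values below show.

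Levels below are group means in RPKM, that is reads per length of exon and depth of library, so genes can be compared. Each comparison of doxycycline with none has 3 deposited values: the larger group mean, a signed fold and a q-value (the authors' adjusted p). The lower mean was derived here as the higher mean divided by the fold. Values per well were not used here, so no SD is given. The q-value belongs to the fold of its comparison and does not measure the spread of the wells. The levels and the ratios between clones or experiments carry no measure of error. A gene is called changed at a q-value under 0.05. The direction of the folds is read from PARG, the induced gene, which has the same sign in all comparisons; its folds in the authors' deposited table were 1.35 (N) and 1.402 (B) in I4, and 2.15 (N) and 1.99 (B) in H6. Depth read from the smallest steps of the levels was about 33.6 to 43.2 M reads per library in experiment N and 19.8 to 26.5 M in experiment B. The epithelial keratin genes KRT8 and KRT18 stood at 25.1 to 55.9 and 101 to 127 RPKM. Markers of blood cells were near 0 (PTPRC at most 0.0515 RPKM, CD3E at most 0.0169 RPKM) with the exception of CD68 (16.1 to 27.4 RPKM). Of the luminal prostate markers, KLK2 was listed at 0 and KLK3 reached 0.00695 RPKM.

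Of the 36 members, 30 reached 1 RPKM in at least 1 group, 21 of them with a highest level between 1 and 10 RPKM. IFITM3, ISG15 and IFITM2 were the most abundant, at 62.2 to 106 RPKM, 27.9 to 91.0 RPKM and 23.6 to 34.4 RPKM over the 8 groups. OAS3, UBE2L6, IFI6, STAT2, IRF7 and ISG20 also reached 10 RPKM in some group, and their ranges overlap, so they have no fixed order. The 6 members under 1 RPKM in every group were MX2, OAS1, BST2, IFI27, RSAD2 and XAF1. BST2, IFI27 and RSAD2, which encode tetherin, a mitochondrial protein and viperin, stayed at or under 0.137 RPKM, or at most 16.7 reads per library by the estimated depth. XAF1, a pro-apoptotic factor, was listed at 0 in 3 comparisons and at 0.00264 RPKM in H6 in experiment B. The plot of levels shows the 30 members of at least 1 RPKM.

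**Figure D1:**
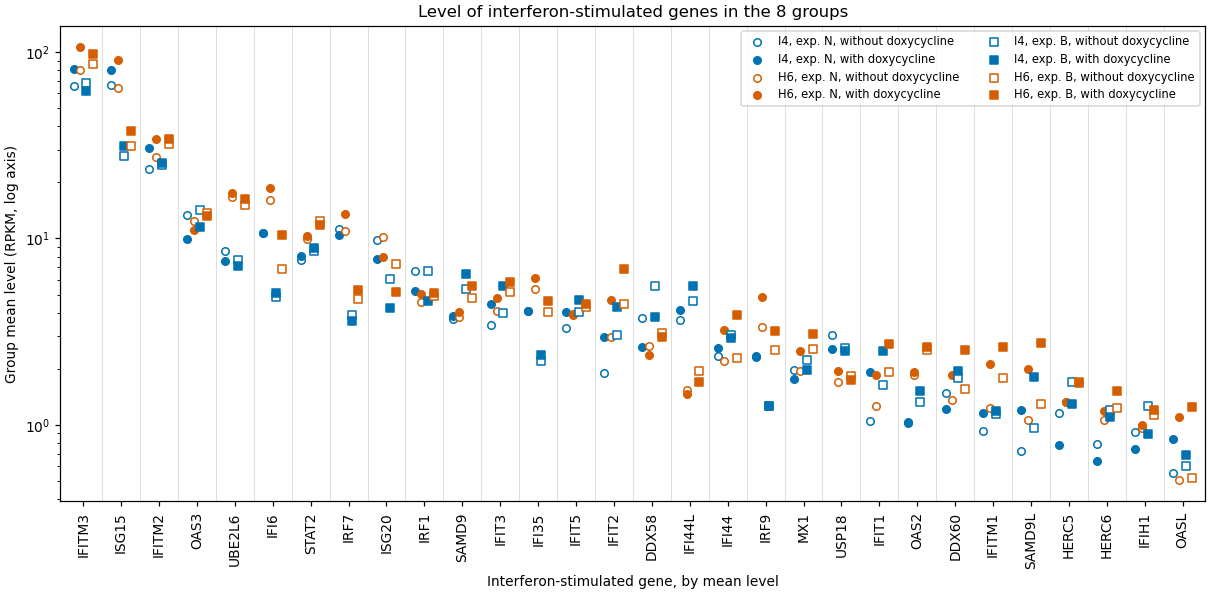
Group mean level (RPKM, log axis) of the 30 interferon-stimulated genes that reach 1 RPKM, ordered by mean level; blue marks are clone I4, orange H6, circles experiment N, squares experiment B, and filled marks are with doxycycline. Each mark is 1 group mean without an error bar; IFI44L stands lower in H6 than in I4 in all groups, and UBE2L6 higher.

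With doxycycline, 22 of the 36 members were called in at least 1 comparison, and none was called in opposite directions. For neither count was the share over all genes computed, so neither is read as a trait of the members. Rises outnumbered falls in each comparison, and the counts lay closer together in I4 than in H6; the difference between the clones in these counts was not tested. In H6 in experiment N 12 of 35 tested members rose (ISG15, OASL, SAMD9L and others) and 1, ISG20, fell, against 6.57% of all 17319 genes tested that rose and 7.07% that fell. In H6 in experiment B 7 of 36 rose and again ISG20 fell, against 3.63% and 3.93% of 15919 genes. In I4 8 of 35 rose and 5 fell in experiment N (7.18% and 8.53% of 16932 genes), and 6 of 35 rose and 5 fell in experiment B (7.46% and 6.59% of 15881 genes). Genes of at least 1 RPKM, as most members are, were called more often than all genes: in H6 9.87% of them rose and 10.5% fell in N, and 5.03% rose and 5.46% fell in B. In I4 10.3% of them rose and 12.5% fell in N, and 10.3% rose and 9.14% fell in B. Of the members at that level in I4, 7 of 27 rose and 5 fell in N, and 6 of 29 rose and 5 fell in B. In H6 12 of 29 such members rose and 1 fell in N, and 7 of 30 rose and 1 fell in B. The median log2 fold of the 30 members of at least 1 RPKM was 0.21 and 0.17 in H6 and 0.01 and 0.04 in I4, in experiments N and B; that of the 11117 genes of this level lay between -0.01 and 0.01. In all 4 comparisons 3 members rose, IFIT1, IFIT2 and SAMD9L (1.73% of 15063 genes rose in all 4), and 1 fell, ISG20 (1.97% fell). Wells of one group share their clone, and variation from clone to clone is not covered by these q-values.

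**Figure D2:**
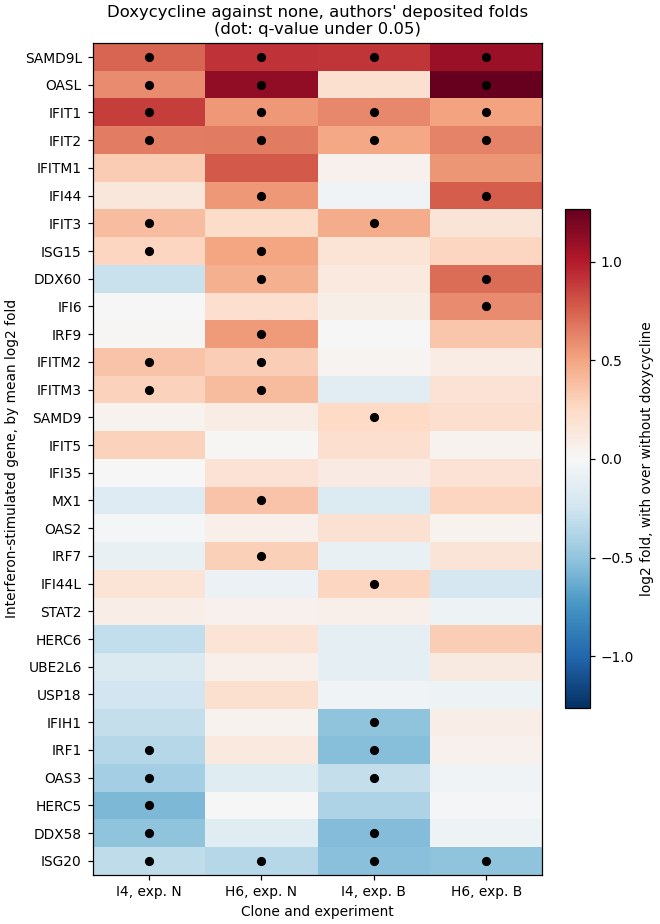
Colour shows the log2 fold with over without doxycycline in the authors' deposited table for 30 interferon-stimulated genes (rows, by mean fold) in 4 comparisons (columns); a black dot marks a q-value under 0.05. SAMD9L, IFIT1 and IFIT2 carry a dot in all 4 columns at the red end and ISG20 at the blue end.

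SAMD9L had the largest mean log2 fold of the 30 members of at least 1 RPKM. It encodes an antiviral and growth-restraining protein and lies on chromosome 7 (93130055 to 93148369, minus strand, GRCh38). Doxycycline took its level from 0.720 to 1.20 RPKM (I4) and from 1.05 to 1.99 RPKM (H6) in experiment N. In experiment B the level went from 0.964 to 1.80 RPKM (I4) and from 1.29 to 2.74 RPKM (H6). Each treated mean exceeded its own control; across groups the ranges overlap, since treated I4 cells of experiment N stood below untreated H6 cells of experiment B. The rises in the authors' deposited table were 1.66-fold (q = 3.46e-05) and 1.89-fold (q listed as 0) in experiment N, and 1.87-fold (q listed as 0) and 2.13-fold (q = 9.31e-13) in experiment B, for I4 and H6 in turn. Its neighbour and paralog SAMD9 had folds of 1.03 to 1.19 in the authors' deposited table and passed in 1 comparison, I4 in experiment B (q = 0.0124). SAMD9L and SAMD9 share no run of 50 bases in GENCODE v29 transcripts.

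The IFIT genes encode proteins that bind viral RNA ends and stop its translation, and they lie side by side on chromosome 10 within 89283694 to 89421001. IFIT2 stood at 1.89 and 2.95 RPKM (I4, experiment N, without and with doxycycline), 2.95 and 4.66 RPKM (H6, N), 3.04 and 4.27 RPKM (I4, B), and 4.43 and 6.86 RPKM (H6, B). IFIT1 stood at 1.05 and 1.93 RPKM, 1.27 and 1.86 RPKM, 1.63 and 2.49 RPKM, and 1.91 and 2.73 RPKM in the same order. Both genes were higher with doxycycline in each of the 4 comparisons, and untreated H6 cells of experiment B overlapped treated cells of experiment N. IFIT2 rose 1.57-fold (q = 1.63e-06), 1.58-fold (q = 1.90e-07), 1.405-fold (q = 4.95e-06) and 1.55-fold (q = 5.91e-09) in the authors' deposited table. IFIT1 rose 1.84-fold (q = 2.39e-10), 1.46-fold (q = 0.00192), 1.53-fold (q = 3.81e-07) and 1.42-fold (q = 0.000447) there. IFIT3, at 3.42 to 5.82 RPKM over the groups, rose in I4 in both experiments. Its fold in the authors' deposited table was 1.31 (q = 0.0105) and 1.39 (q = 3.47e-05) in I4, and 1.17 (q = 0.065) and 1.12 (q = 0.564) in H6. IFIT5 had folds of 1.01 to 1.22 in the authors' deposited table, with no call. Part of IFIT2 (8.68% of its exon bases) overlaps the exons of AL353751.1 on the same strand, so those reads can be shared.

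ISG20, an RNA exonuclease that degrades viral RNA, was the single member called lower in all 4 comparisons. It lies on chromosome 15 (88636153 to 88656483, plus strand). The level fell from 9.78 to 7.80 RPKM in I4 and from 10.2 to 7.95 RPKM in H6 in experiment N, and from 6.10 to 4.23 RPKM in I4 and from 7.32 to 5.16 RPKM in H6 in experiment B. Within each experiment both treated means lay below both untreated means. The falls were 1.25-fold (q = 0.0274), 1.28-fold (q = 0.0123), 1.44-fold (q = 5.45e-06) and 1.42-fold (q = 9.64e-05) in the authors' deposited table, in the same order; at a q-value under 0.01 those of experiment N no longer pass. Its promoter holds the core shown above.

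The OAS family makes the second messenger that activates RNase L, apart from OASL, which lacks that activity and supports RNA sensing. OASL went from 0.555 to 0.840 RPKM (I4) and from 0.507 to 1.10 RPKM (H6) with doxycycline in experiment N, and from 0.601 to 0.690 RPKM (I4) and from 0.517 to 1.24 RPKM (H6) in experiment B. Untreated levels were alike in the clones, and treated H6 was the highest group of each experiment. It rose in 3 of the 4 comparisons of the authors' deposited table: 2.18-fold (q = 5.65e-05) and 2.40-fold (q = 1.58e-05) in H6 and 1.52-fold (q = 0.0345) in I4 in N, against 1.15-fold (q = 0.872) in I4 in B. About 41.3 to 146 reads per library lie behind these levels. OAS3, the family's most abundant member at 9.95 to 14.1 RPKM, fell in I4 by 1.34-fold (q = 3.54e-08) in N and 1.23-fold (q = 0.000444) in B and was 1.11-fold (q = 0.159) and 1.03-fold (q = 1.00) lower in H6, in the authors' deposited table. Its level without and with doxycycline was 13.4 and 9.95 RPKM (I4, N), 12.4 and 11.1 RPKM (H6, N), 14.1 and 11.5 RPKM (I4, B), and 13.6 and 13.3 RPKM (H6, B). OAS1 (0.278 to 0.686 RPKM) had folds of 1.14 to 1.58 in the authors' deposited table without a call. OAS2 (1.02 to 2.61 RPKM) had folds of at most 1.14 in either direction and no call there.

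Among sensors of viral RNA, DDX58 (the RIG-I protein) and DDX60, a helicase that promotes RIG-I signalling, were called in opposite clones and directions. DDX58 fell from 3.73 to 2.63 RPKM in I4 in experiment N and from 5.58 to 3.80 RPKM in experiment B, which the authors' deposited table gives as 1.42-fold (q = 0.000171) and 1.47-fold (q = 1.03e-08). In H6 it started lower, at 2.64 and 3.11 RPKM, and stood at 2.38 and 2.98 RPKM with doxycycline (q = 0.364 and 1.00 in the authors' deposited table). DDX60 rose in H6 from 1.35 to 1.85 RPKM in N and from 1.55 to 2.54 RPKM in B, or 1.37-fold (q = 1.68e-05) and 1.63-fold (q = 1.80e-08) in the authors' deposited table. In I4 the DDX60 level was 1.48 and 1.22 RPKM in N and 1.79 and 1.96 RPKM in B, without and with doxycycline, with no call (q = 0.119 and 0.643 in the authors' deposited table). IFIH1, which encodes the sensor MDA5, was near 1 RPKM in all groups (0.743 to 1.27 RPKM) and fell in I4 in experiment B alone, by 1.42-fold (q = 0.0137) in the authors' deposited table.

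Of the transcription factors of the response, IRF1 was called in I4 and IRF7 and IRF9 in H6. IRF1, an activator of interferon-inducible promoters, fell in I4 from 6.68 to 5.21 RPKM in N and from 6.66 to 4.60 RPKM in B, or by 1.28-fold (q = 0.0098) and 1.45-fold (q = 1.58e-08) in the authors' deposited table. In H6 IRF1 stood at 4.59 and 5.01 RPKM in N and 4.92 and 5.10 RPKM in B, with folds of 1.09 (q = 0.417) and 1.04 (q = 1.00) in the authors' deposited table. With doxycycline the H6 level was 96.1% (N) and 111% (B) of that in I4, against 68.6% and 73.9% without. Reads of IRF1 can be shared in the libraries without strand, since 22% of its exon bases overlap exons on the opposite strand. IRF9, the DNA-binding partner of the STATs, rose in H6 in experiment N from 3.36 to 4.88 RPKM, 1.45-fold (q = 0.000189) in the authors' deposited table. It was 1.27-fold higher in H6 in B (q = 0.249) and within 1.01-fold in I4 in both experiments of the authors' deposited table. IRF7, the factor that amplifies interferon production, rose 1.23-fold in H6 in N (q = 0.00149) in the authors' deposited table and was not called elsewhere. STAT2, at 7.64 to 12.4 RPKM, was not called, and its folds in the authors' deposited table were at most 1.06.

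ISG15 is a ubiquitin-like protein that is attached to other proteins by UBE2L6 and HERC5 and removed by USP18. ISG15 rose in experiment N from 66.6 to 80.6 RPKM in I4 and from 64.4 to 91.0 RPKM in H6, or 1.21-fold (q = 0.00145) and 1.41-fold (q = 7.58e-11) in the authors' deposited table. In experiment B ISG15 went from 27.9 to 31.3 RPKM (I4) and from 31.2 to 37.7 RPKM (H6). Those folds of 1.12 and 1.21 were not called (q = 0.218 and 0.238 in the authors' deposited table), and all levels of B lay below all levels of N. HERC5 fell in I4 in N by 1.49-fold (q = 0.0222) and was 1.31-fold lower in I4 in B (q = 0.0659), against 1.01-fold in H6 in both, in the authors' deposited table. UBE2L6, USP18 and HERC6 were not called, with folds of at most 1.24 in either direction in the authors' deposited table; 23.4% of the 50-base runs of USP18 also occur in other genes, mostly USP41.

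The membrane proteins IFITM2 and IFITM3, which block fusion of viruses in endosomes, rose in experiment N. IFITM3 rose there from 66.1 to 80.7 RPKM in I4 and from 80.6 to 106 RPKM in H6, or 1.22-fold (q = 0.0387) and 1.32-fold (q = 3.62e-07) in the authors' deposited table. In experiment B IFITM3 went from 68.5 to 62.2 RPKM (I4) and from 86.6 to 98.1 RPKM (H6), with q = 0.266 and 0.201 in the authors' deposited table. IFITM2 rose 1.29-fold (q = 0.00603) and 1.24-fold (q = 0.000296) in I4 and H6 in N and was within 1.07-fold in B, in the authors' deposited table. The IFITM2 level was 23.6 and 30.4 RPKM (I4, N), 27.5 and 34.2 RPKM (H6, N), 24.7 and 25.4 RPKM (I4, B), and 32.3 and 34.4 RPKM (H6, B), so the treated and untreated groups overlap across clones. IFITM1, at 0.923 to 2.62 RPKM, had folds of 1.03 to 1.71 with no call (smallest q = 0.0684, in H6 in N) in the authors' deposited table. These values are uncertain as single genes, because 32.0%, 34.1% and 17.4% of the 50-base runs of IFITM1, IFITM2 and IFITM3 also occur in other genes, mainly in each other. For IFITM3, 21.3% of the exon bases also overlap exons on the opposite strand. Its reads can therefore be shared in the libraries of experiment N, which hold both strands.

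Among other effectors, IFI44, IFI6 and MX1 rose in H6 in at least 1 experiment. IFI44, of unknown biochemical function, rose in H6 from 2.20 to 3.22 RPKM in N and from 2.29 to 3.89 RPKM in B, or 1.46-fold (q = 0.0168) and 1.70-fold (q = 0.000376) in the authors' deposited table. In I4 IFI44 was at 2.35 and 2.59 RPKM in N and 3.04 and 2.94 RPKM in B, with q = 0.87 and 1.00 in the authors' deposited table. IFI6, a mitochondrial and endoplasmic reticulum protein that protects from apoptosis, rose in H6 in B from 6.90 to 10.4 RPKM, 1.51-fold (q = 0.00395) in the authors' deposited table. In H6 in N it was 1.16-fold higher (q = 0.0683), and in I4 at most 1.06-fold higher, in the authors' deposited table. MX1, a dynamin-like GTPase that traps viral nucleocapsids, rose 1.29-fold in H6 in N (q = 0.0225) and was 1.21-fold higher in H6 in B (q = 0.348), against 1.12-fold and 1.13-fold lower in I4 (q = 0.71 and 0.418), in the authors' deposited table. IFI44L, the neighbour of IFI44 on chromosome 1, rose 1.21-fold in I4 in B (q = 0.00779) in the authors' deposited table and was called nowhere else.

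The contrast of the clones was made from the group means, with 1 value of H6 over I4 in each experiment and no test, since values per well were not used here. Without doxycycline, 1 member of at least 1 RPKM differed at least 2-fold in both experiments: IFI44L, which was lower in H6. It stood at 3.65 RPKM in I4 and 1.54 RPKM in H6 in N, and at 4.61 and 1.96 RPKM in B, so H6 held 42.1% and 42.4% of the I4 level. Of all genes of at least 1 RPKM in the higher clone, 0.493% were lower in H6 by this rule and 1.01% higher. UBE2L6 came next, 1.95-fold and 1.97-fold higher in H6 (8.59 against 16.7 RPKM in N, 7.69 against 15.1 RPKM in B). OAS2 was 1.78-fold and 1.91-fold and IRF9 1.46-fold and 1.98-fold higher in H6, in N and B. DDX58, USP18 and IRF1 were lower in H6, at 70.8% and 55.8%, 55.9% and 70.5%, and 68.6% and 73.9% of the I4 level. In each experiment 19 of the 30 members stood higher in H6, with a median log2 ratio of 0.21 in both, against 0.03 (N) and 0.04 (B) over all genes of this level. The share of all genes that stood higher in H6 was not computed, so only the medians can be compared.

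With doxycycline some members differed more between the clones and others less. UBE2L6 (2.30-fold in N and 2.31-fold in B) and IRF9 (2.09-fold and 2.54-fold) were at least 2-fold higher in H6 in both experiments, a rule that 1.24% of all genes met. IFI44L was 2.82-fold and 3.31-fold lower in H6, a rule that 0.605% of genes met. The treated UBE2L6 level was 7.57 RPKM in I4 and 17.5 RPKM in H6 in N, and 7.09 and 16.3 RPKM in B. The treated IRF9 level was 2.33 RPKM in I4 and 4.88 RPKM in H6 in N, and 1.26 and 3.19 RPKM in B. The treated IFI44L level was 4.12 RPKM in I4 and 1.46 RPKM in H6 in N, and 5.58 and 1.69 RPKM in B. For each of these 3 genes the group means of the clones do not overlap across the experiments. IFITM1 (1.83-fold and 2.22-fold) and IFI6 (1.74-fold and 2.05-fold) passed 2-fold in experiment B. DDX58 came closer, at 90.6% (N) and 78.2% (B) of the I4 level in H6 against 70.8% and 55.8% without doxycycline, as did IRF1 with the values given above. For IRF9 48.4% of the exon bases overlap the gene AL136295.5 on the same strand, so part of its level can belong to that gene. With doxycycline 24 of 30 members in N and 25 in B stood higher in H6, with medians of 0.38 and 0.42 on the log2 scale, against 0.03 over all genes in both. Here too the share of all genes that stood higher in H6 was not computed. Among members under 1 RPKM, MX2 stood 2.31-fold to 3.15-fold higher in H6 over both experiments and treatments, at 0.205 to 0.344 RPKM in I4 and 0.523 to 0.793 RPKM in H6. RSAD2 was lower in H6, at 0.00701 to 0.0220 RPKM against 0.0468 to 0.0675 RPKM in I4, on at most 10.9 reads per library.

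**Figure D3:**
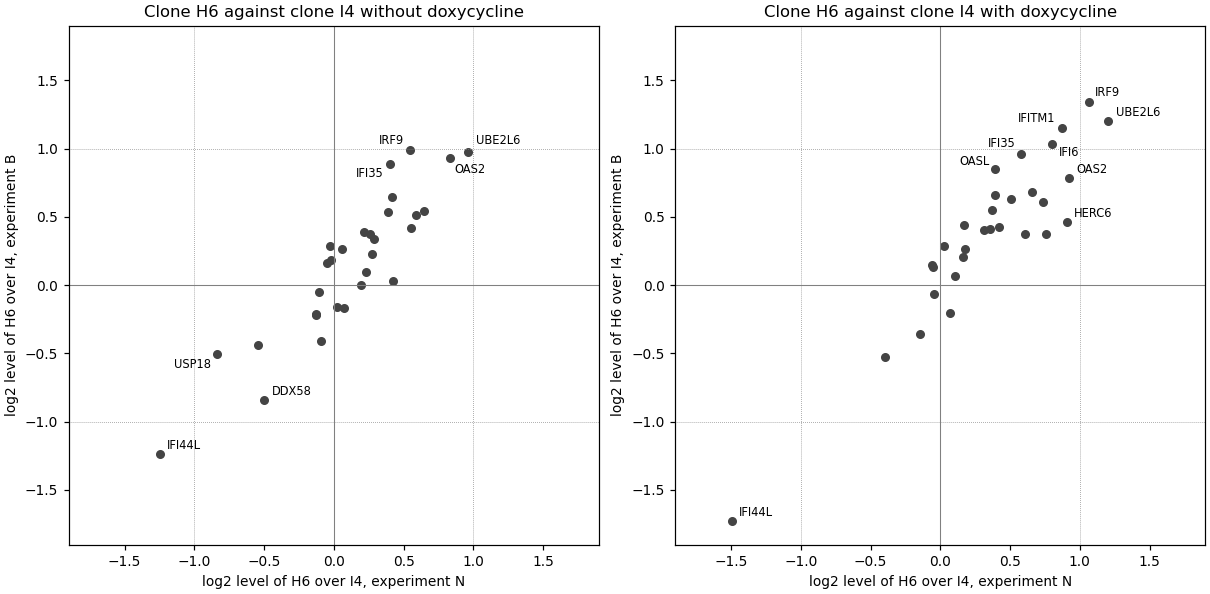
Each point is 1 of 30 interferon-stimulated genes, with the log2 ratio of the group means of H6 over I4 in experiment N (horizontal) and experiment B (vertical), without doxycycline (left) and with it (right); dotted lines mark 2-fold. IFI44L lies beyond 2-fold at the lower left of both panels, and UBE2L6 and IRF9 cross it at the upper right with doxycycline.

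The response to doxycycline itself differed in size between the clones for many members, given here as the log2 fold in H6 minus that in I4. In both experiments it was above 0 for 20 of 30 members (66.7%), against 37.9% of the 11117 genes of this level, and below 0 for 5. The members' median was 0.23 in N and 0.24 in B, against 0.00 and 0.01 over all genes. OASL (0.53 and 1.06), DDX60 (0.73 and 0.58), IFI44 (0.41 and 0.81), IRF1 (0.49 and 0.59) and MX1 (0.53 and 0.45) had the largest mean differences. The 5 members below 0 in both were IFI44L (-0.25 and -0.49), IFIT3 (-0.16 and -0.31), IFIT5 (-0.28 and -0.16), IFIT1 (-0.33 and -0.10) and STAT2 (-0.03 and -0.12). So IFIT1, IFIT3 and IFIT5 had the larger fold in I4, unlike IFIT2 (0.02 and 0.14) beside them, and the neighbours IFI44 and IFI44L lay at opposite ends. These differences were not tested, because the table gives no standard error. PARG was itself induced more strongly in H6 than in I4, and its part in the difference was not tested.

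**Figure D4:**
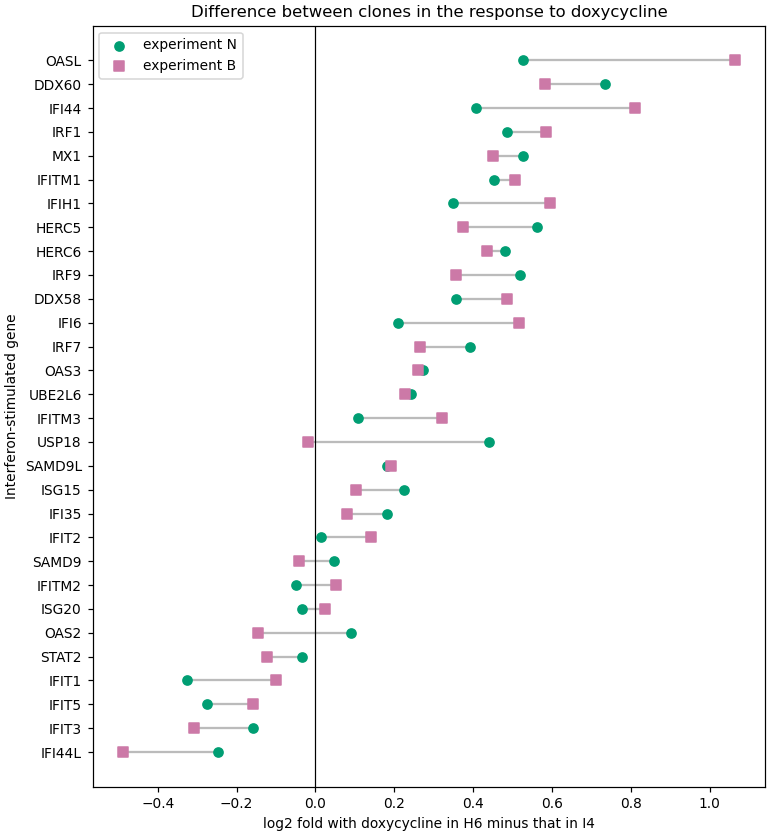
For each of 30 interferon-stimulated genes (vertical) the log2 fold with doxycycline in H6 minus that in I4 is plotted (horizontal), with a green circle for experiment N, a pink square for experiment B and a grey line between them. OASL, DDX60 and IFI44 lie farthest to the right and IFI44L farthest to the left; 20 genes have both marks above 0.

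The level of some members differed more between the experiments than with doxycycline. IRF7 was 2.66-fold, ISG15 2.35-fold and IFI6 2.10-fold higher in experiment N than in B, as the geometric mean of the ratios of the 4 matched groups. IRF9 (1.62-fold), ISG20 (1.59-fold) and IFI35 (1.55-fold) followed, and IFIT2 had the lowest ratio, 0.664. The 6 members at least 1.5-fold higher in N have transcripts of 53.0% to 66.8% GC. UBE2L6, IFITM3, IFITM2 and OAS3 lie in the same GC range, at ratios of 1.09, 1.06, 0.994 and 0.890. Over the 30 members the ratio rose with GC content (Spearman's rho = 0.81 across genes, which are not independent replicates). Over 11071 genes of at least 1 RPKM rho was 0.59, and 14.7% of them were at least 1.5-fold higher in N. Passage, library kit and sequencing centre all changed between N and B and cannot be told apart, and the part of GC content was not tested.

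**Figure D5:**
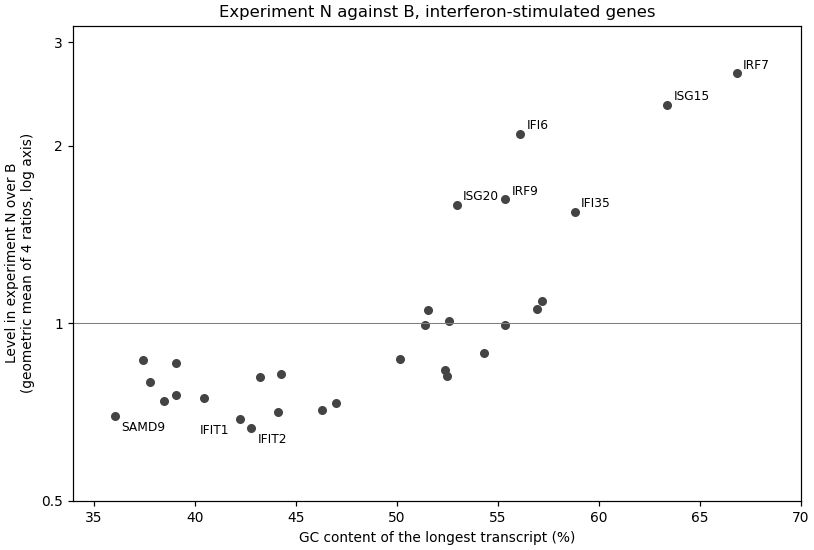
Ratio of the level in experiment N over B (vertical, log axis; geometric mean over the 4 matched groups) against GC content of the longest transcript (horizontal, percent) for 30 interferon-stimulated genes. IRF7 and ISG15, at the highest GC content, lie at the top, and SAMD9, IFIT1 and IFIT2 at the bottom.

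The rest of the pathway was read from a list of 94 further genes, all with a row and 59 of at least 1 RPKM. In I4 3 rose and 18 fell of 81 tested in experiment N (3.70% and 22.2%, against 7.18% and 8.53% of all genes tested), and 2 rose and 15 fell of 76 in B (2.63% and 19.7%, against 7.46% and 6.59%). In H6 6 rose and 7 fell of 81 in N (7.41% and 8.64%, against 6.57% and 7.07%), which is near the share over all genes, and 6 rose and 5 fell of 74 in B (8.11% and 6.76%, against 3.63% and 3.93%). Interferon transcripts themselves were at or near 0: of 15 ligand genes, 14 stayed under 0.1 RPKM. IFNE, the epithelial interferon epsilon, reached 1.29 RPKM in I4 in B and fell there by 1.71-fold (q = 0.0254) in the authors' deposited table. All 6 receptor genes were expressed. IL10RB, a shared chain of the interferon lambda and interleukin-10 receptors, rose in all 4 comparisons, by 1.20-fold (q = 0.00854) and 1.51-fold (q = 4.38e-09) in I4 and 1.295-fold (q = 2.15e-05) and 1.34-fold (q = 0.000143) in H6, for N then B, in the authors' deposited table. IFNAR2, a chain of the type I receptor, fell in I4 by 1.26-fold (q = 0.000224) and 1.23-fold (q = 0.00575) and was within 1.04-fold in H6 in the authors' deposited table. IFNGR2 rose in N by 1.31-fold in I4 (q = 0.00211) and 1.34-fold in H6 (q = 1.08e-07) in the authors' deposited table, and IFNAR1, IFNGR1 and IFNLR1 were not called.

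Signal transducers were mostly not called. STAT3, which PC-3 cells are known to lack, was listed at 0 in 3 comparisons and at 0.0017 RPKM in H6 in N. The feedback inhibitor SOCS3 fell in all 4 comparisons of the authors' deposited table, by 1.39-fold (q = 1.37e-09) and 1.36-fold (q = 6.06e-07) in I4 and 1.29-fold (q = 4.49e-06) and 1.28-fold (q = 0.000449) in H6. SOCS1 fell in I4 by 2.12-fold (q = 2.02e-05) in N and 3.34-fold (q = 0.00327) in B, from 1.89 and 0.536 RPKM, in the authors' deposited table. IKBKE, a kinase that can activate IRF3, fell in all 4, by 2.49-fold and 2.37-fold in I4 (q listed as 0) and 1.53-fold (q listed as 0) and 1.48-fold (q = 3.98e-09) in H6, in the authors' deposited table. TAP2, a subunit of the antigen peptide transporter, fell 1.404-fold and 1.49-fold in I4 (q = 1.85e-10 and 8.43e-13) and 1.22-fold and 1.20-fold in H6 (q = 0.00105 and 0.027) in the authors' deposited table; its partner TAP1 was also called lower in all 4. JAK1, TYK2, IRF3, PIAS1 and the adaptor MAVS were not called.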

How the data were processed

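Poly(A)-selected RNA of 23 libraries was grouped by clone, experiment and doxycycline from the labels. Per the submitters' processing notes the build was hg38 (aligner, counter, annotation and test not stated in what was used here). The deposited table holds no value per library, so the level was taken as an RPKM group mean made by the authors (unit inferred from the values: at the lowest levels, level times exon length moves in equal steps). The fold is a signed score (ratio) made by the authors and deposited; it stays finite where the lower mean is near 0. The q-value is the adjusted p-value deposited by the authors, method not stated. Computed here were the lower means, log2 folds, ratios between clones and experiments, and counts of calls; the steps were tested on simulated data. Depth assumed 3 libraries per group mean. Names, exon lengths, GC content and overlaps came from GENCODE v29 and older symbols from RefSeq, with Python 3.11.15 and pandas 2.3.3. Members and lists were chosen with earlier results of these data known. Text values are given for members of at least 1 RPKM that were called in at least 2 comparisons or differed at least 2-fold between clones in both experiments, and others more briefly; from the further genes it names those called in all 4 comparisons, ligands, receptors and signal transducers. Some items of these lists are not reported here. Alternatives were a q-value under 0.01, a minimum fold of 1.5, a minimum of 1 RPKM, single experiments or clones, levels scaled to a common sum and no filter on low levels. The tests planned on counts could not be run on this table.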

Additional observations from a re-analysis of the deposited data

How the results depend on the processing

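No paired analysis was possible because the table holds no values per library, and leaving out each replicate was not run for the same reason. Of 45 member calls, 35 were kept at a q-value under 0.01. At that setting I4 in experiment N had 5 rises and 3 falls (main 8 and 5), and the fall in H6 in experiment N was lost (0 against 1), so that 0 members fell in all 4 comparisons while 3 rose. A fold of at least 1.5 left 4 rises and 0 falls in I4 in N, and 3 and 0 in H6 in N. It left 2 and 0 in I4 in B, and 6 and 0 in H6 in B. The main rises in this order were 8, 12, 6 and 7. In all 4 comparisons this fold left 1 rise, SAMD9L, and 0 falls. A minimum of 1 RPKM moved no count by over 1.5 times. Rises shared by all comparisons numbered 3; within experiment N alone they were 7, within H6 alone 6, and falls within I4 alone were 4. In the contrast of the clones without doxycycline, scaling levels to a common sum gave 1 member higher in H6 (main 0), a 1.5-fold limit 2 and no filter on low levels 1, with 3 lower (main 1). With doxycycline, experiment B alone gave 4 higher and a 1.5-fold limit 7 (main 2), and no filter gave 2 lower (main 1). The count of members with the larger log2 fold in H6 in both experiments was 20. It was 23 in experiment N alone, 22 in experiment B alone and 24 with no filter on low levels. Each of these alternatives drops a condition of the main rule, so none could give a lower count. The share of all genes was not computed for them. Scaling shifted ratios of the clones by -0.07 to 0.00 on the log2 scale. Folds of genes of a few reads are imprecise at this depth.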

Other observations

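Interferon-inducible genes that write or read ADP-ribose, the modification that PARG removes in its poly form, were examined within the list of 94 genes; they were singled out after their values were seen. PARP9, PARP14 and ZC3HAV1 were not called in any comparison of the authors' deposited table, at levels up to 3.95, 7.97 and 10.9 RPKM. DTX3L, the ubiquitin ligase partner of PARP9, fell in I4 in experiment B by 1.21-fold (q = 0.0049) in the authors' deposited table. PARP12, which restricts RNA viruses, fell there by 1.26-fold (q = 0.00817) in the authors' deposited table. PARP10, a mono-ADP-ribosyltransferase, fell in I4 in experiment N by 1.24-fold (q = 0.00351) and rose in H6 in the same experiment by 1.23-fold (q = 0.00359) in the authors' deposited table. In experiment B its folds were -1.17 (q = 0.477) and -1.01 (q = 1.00), and the difference between the clones was not tested.

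Also singled out after their values were seen were 3 genes called higher in H6 in both experiments and in I4 in neither. GBP2, a guanylate-binding GTPase, rose 1.38-fold (q = 3.38e-06) and 1.52-fold (q = 0.000218) in H6, for N then B, in the authors' deposited table. LGALS3BP, a secreted glycoprotein, rose 1.28-fold and 1.24-fold, and GBP3 1.27-fold and 1.20-fold, in the same comparisons of the authors' deposited table. In I4 the folds of these 3 genes in the authors' deposited table lay between -1.10 and 1.14. The list of further genes also held falls called in both experiments of a single clone. RNF213 fell in H6 by 1.18-fold (q = 0.00597) and 1.23-fold (q = 0.00311), for N then B, in the authors' deposited table. It was not called in I4. IFNAR2, SOCS1, PTPN2, LAMP3 and PSMB8 were called lower in I4 in both experiments and in H6 in neither. The share of all genes with such calls was not computed, so the 3 rises are not read as a trait of H6. The difference between the clones was not tested.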
